A study of Mus musculus with 31 samples.

Results

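The glutathione S-transferases of the alpha, mu and pi classes were followed by the 10 genes Gsta1, Gsta2, Gsta3, Gsta4, Gstm1, Gstm2, Gstm3, Gstm4, Gstp1 and Gstp2, chosen by symbol among the 31172 genes listed in every library. RNA came from the livers of 31 hFIX-R29X mice, which lack mouse F9 and carry a human factor IX minigene with the R29X nonsense mutation under the human transthyretin promoter, so that all groups share this genotype. Mice aged 8 to 14 weeks received 6 subcutaneous doses, 1 every 5 days, and were killed 48 h after the last dose (the dose entry of the labels calls the dosing weekly). The groups were DPBS, the vehicle (11 mice, 6 female and 5 male), Control-GalNAc-ASO at 15 mg/kg (4 mice, 2 of each sex) or 20 mg/kg (6 mice, 3 of each sex), and Upf3b-GalNAc-ASO at 10 mg/kg or at 20 mg/kg (5 mice each, 2 female and 3 male). Antisense oligonucleotides (ASOs) carrying N-acetylgalactosamine (GalNAc) enter hepatocytes through the asialoglycoprotein receptor. The Upf3b ASO targets Upf3b, a factor of nonsense-mediated mRNA decay.

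Cytosolic glutathione S-transferases join the thiol of glutathione to electrophilic drugs, toxins and lipid peroxidation products, and the conjugates are then exported and broken down to mercapturates. They are dimers named by class, and the liver is one of their main sites. Several alpha and mu genes are classical targets of NRF2, the transcription factor of the electrophile response, and of the drug-sensing nuclear receptors CAR and PXR. Mouse Gstp1 is known for higher expression in male than in female liver.

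The 10 genes lie in a few clusters of GRCm38, and each of the transcripts used here has 7 exons (alpha and pi) or 8 (mu). Gsta4 (chr9:78182774-78209349), Gsta1 (chr9:78230656-78242684) and Gsta2 (chr9:78331018-78355788) are neighbours, while Gsta3 lies apart at chr1:21240589-21265661. The mu genes are Gstm3 (chr3:107963696-107969283), Gstm2 (chr3:107981702-107986453), Gstm1 (chr3:108012255-108017973) and Gstm4 (chr3:108040408-108044894), and the pi genes are Gstp1 (chr19:4035407-4037985) and Gstp2 (chr19:4040285-4046023). Similarity within the classes sets what the reads can tell apart. The coding sequences of Gsta1 and Gsta2 were 98.0% identical and those of Gstp1 and Gstp2 98.1%, against 76.1% for Gsta1 and Gsta3, 89.4% for Gstm1 and Gstm3 and 56.2% for Gsta1 and Gstm1. Over the last 300 bases of the transcript, all 31-base words of Gstp1 and Gstp2 were shared with each other. Of those of Gsta1 90.4% occurred in another gene, and of those of Gsta2 51.5%. Gsta1 shared most with the gene model Gm3776 (88.1% of its words), which was not analysed here, and Gsta2 with Gm10639 (36.7%). Gsta3, Gsta4 and the 4 mu genes shared none in that stretch. The main results for Gsta1 and Gsta2, and for Gstp1 and Gstp2, are therefore given singly and summed. The sum leaves out Gm3776, so values given for Gsta1 may hold reads of Gm3776, which was not tested.

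Windows of 250 bases before the transcription start were taken from RefSeq promoters (GRCm38.p6), where 9 of the 10 genes had an entry. They are shown for Gsta1, the member that rose, its near-identical copy Gsta2, the abundant Gsta3, which passed no threshold, and the pi pair. Capitals mark, on either strand, the antioxidant response element core TGACNNNGC (held by 10.2% of 32851 windows) and its wider form TGANNNNGC, which includes the core (35.2%), the xenobiotic response element core GCGTG (28.2%), the GC box GGGCGG (32.7%), CCAAT (33.8%) and TATAAA (12.4%).
Gsta1, chr9:78230419-78230668, plus strand: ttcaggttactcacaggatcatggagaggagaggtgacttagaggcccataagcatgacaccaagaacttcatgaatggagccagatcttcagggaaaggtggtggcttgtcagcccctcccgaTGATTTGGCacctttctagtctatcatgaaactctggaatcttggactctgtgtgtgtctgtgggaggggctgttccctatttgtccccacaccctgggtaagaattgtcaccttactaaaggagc
Gsta2, chr9:78347146-78347395, minus strand: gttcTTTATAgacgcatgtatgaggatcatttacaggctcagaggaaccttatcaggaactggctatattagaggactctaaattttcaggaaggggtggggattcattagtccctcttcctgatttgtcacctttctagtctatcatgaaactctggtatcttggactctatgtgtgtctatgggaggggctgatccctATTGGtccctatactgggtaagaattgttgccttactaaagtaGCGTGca
Gsta3, chr1:21240335-21240584, plus strand: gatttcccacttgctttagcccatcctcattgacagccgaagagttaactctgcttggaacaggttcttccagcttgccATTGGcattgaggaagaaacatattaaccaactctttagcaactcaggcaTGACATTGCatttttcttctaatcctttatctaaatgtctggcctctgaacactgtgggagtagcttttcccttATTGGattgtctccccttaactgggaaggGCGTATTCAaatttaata
Gstp1, chr19:4037913-4038162, minus strand: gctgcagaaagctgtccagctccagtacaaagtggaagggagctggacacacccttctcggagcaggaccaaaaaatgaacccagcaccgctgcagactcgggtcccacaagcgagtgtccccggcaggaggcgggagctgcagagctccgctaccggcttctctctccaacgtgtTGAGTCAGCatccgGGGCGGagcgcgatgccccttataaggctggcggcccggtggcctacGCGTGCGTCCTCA
Gstp2, chr19:4042222-4042471, minus strand: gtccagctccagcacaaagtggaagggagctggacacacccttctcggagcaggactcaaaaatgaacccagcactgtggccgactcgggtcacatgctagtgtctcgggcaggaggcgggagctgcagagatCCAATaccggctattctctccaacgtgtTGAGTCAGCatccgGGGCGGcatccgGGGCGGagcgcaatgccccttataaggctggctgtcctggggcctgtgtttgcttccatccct
The windows of Gsta2 and Gstp2 belong to starts inside the genes as annotated above and lie wholly within them, while that of Gsta1 reaches 13 bases into its gene and that of Gstp1 73 bases. The stricter antioxidant response element core was in the Gsta3 window alone among the 11 windows of these genes, and the wider form was in those of Gsta1, Gsta3, Gstm3, Gstm4, Gstp1 and Gstp2. Sequence further upstream than these windows was not searched, so an element there would not be seen. In Gsta1 the wider match began 126 bases before the start. In Gstp1 it began 74 and 9 bases before it, the second overlapping GCGTG, and in Gstp2 89 bases before it. The windows of Gsta1 and Gsta2 were 77.0% identical over 239 aligned bases, and those of Gstp1 and Gstp2 88.1% over 235.

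The ASO listed by the study for Upf3b has 16 bases, and it is shown because its match to the measured genes can be counted.
Upf3b-ASO: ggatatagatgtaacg
All 16 bases were complementary to Upf3b transcripts. In the annotated transcripts of the 10 genes the longest complementary run was 8 bases, in Gsta3 and Gstm4, and 6 in Gsta1 and Gsta2. Introns outside these transcripts were not searched.

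Read totals inferred from the deposited values were 1020676 to 7391615 per library (median 3627941), whereas the study's methods report a higher average depth. By these totals 3 reads, the floor used here, stood for 0.406 to 2.94 TPM. TPM is the deposited expression unit, which scales each library to the same total. This floor covers counting error only. Upf3b was 33.8 to 136 TPM in the DPBS mice, 27.1 to 78.7 in Control-GalNAc-ASO 15 mg/kg, 85.3 to 135 in Control-GalNAc-ASO 20 mg/kg, 3.95 to 53.7 in Upf3b-GalNAc-ASO 10 mg/kg and 2.57 to 16.7 in Upf3b-GalNAc-ASO 20 mg/kg. The library labelled Upf3b-GalNAc-ASO 10 mg/kg replicate 3 had the fewest reads, the lowest median correlation with its group (r = 0.693, the others 0.743 to 0.895) and 53.7 TPM of Upf3b, inside the control range. The main values of that group are also given without it. In Upf3b-GalNAc-ASO 20 mg/kg replicate 2 the 50 most abundant genes held 38.3% of all TPM, the highest share of any library (median 29.7%). Whether this lowered the other values of that mouse was not tested. All 8 hepatocyte markers, Alb and Ttr among them, were at a median of at least 5 TPM in every group. A lower value can reflect fewer cells of a type or less RNA per cell, which bulk liver cannot tell apart.

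In DPBS mice the members ranged from genes near the detection floor to some of the more abundant liver transcripts. TPM here is thus a scaled read count, not divided by transcript length. In the 6 females Gstm1, the main mu subunit of liver, was highest (447 to 643 TPM, mean 565), followed by the alpha gene Gsta3 (351 to 715, mean 492) and Gstp1 (133 to 164, mean 153). In the 5 males Gstp1 led (961 to 1544, mean 1173), ahead of Gstm1 (401 to 747, mean 538) and Gsta3 (421 to 623, mean 506). Gstm1 and Gsta3 overlapped in both sexes, and Gstp1 did not overlap with its neighbours in either. Gstm2, Gsta2, Gstm4, Gstm3 and Gsta4 formed a middle group with means of 15.0 to 51.2 TPM in females and 8.79 to 34.7 in males, in which most neighbours overlapped. Gsta1 lay near the floor (mean 0.725 TPM in females and 2.61 in males), and Gstp2 was listed at 0 in all 11 mice. Divided by transcript length, the order of the 3 most abundant genes stayed as it was in each sex, and only places 5 to 8 changed (Gsta4, Gstm4 and, in males, Gsta2).

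Gsta1, an alpha-class subunit barely detected in DPBS livers, rose in the mice given Upf3b-GalNAc-ASO 20 mg/kg. Its level was at most 4.64 TPM in the 11 DPBS mice (median 0.757, 3 mice at 0). In Control-GalNAc-ASO 15 mg/kg the 4 mice were at 5.03, 8.28, 7.19 and 1.40 TPM. Control-GalNAc-ASO 20 mg/kg ranged from 0 to 10.2 TPM with a median of 5.74. The Upf3b-GalNAc-ASO 10 mg/kg mice were at 33.4, 32.8, 3.35, 107 and 70.2 TPM in replicates 1 to 5, and those at 20 mg/kg at 62.8, 18.4, 107, 69.5 and 43.3. All 5 mice at 20 mg/kg and 4 of 5 at 10 mg/kg thus lay above every DPBS and control ASO mouse, and the exception was the library that stood apart. How many of all genes separated the groups in this way was not counted.

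Gsta2, which differs from Gsta1 in few coding bases, started from a higher level and overlapped between groups. DPBS mice had 9.75 to 60.7 TPM (median 23.7), Control-GalNAc-ASO 15 mg/kg 53.6, 43.7, 84.9 and 12.6, and Control-GalNAc-ASO 20 mg/kg 9.09 to 66.7 (median 22.1). With Upf3b-GalNAc-ASO 10 mg/kg the values were 53.9, 71.4, 32.9, 203 and 103 TPM, and with 20 mg/kg 99.7, 49.6, 58.2, 36.5 and 92.3. Only 2 mice in each Upf3b-GalNAc-ASO group were above the highest mouse of the control ASO group they were compared with. Gsta1 made up 5.11% ± 5.08 (SD, n = 11) of the summed Gsta1 and Gsta2 in DPBS, 10.6% ± 3.68 (n = 4) and 13.4% ± 12.1 (n = 6) with the control ASO at 15 and 20 mg/kg, and 30.8% ± 12.6 and 45.6% ± 18.3 (n = 5 each) with Upf3b-GalNAc-ASO at 10 and 20 mg/kg.

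**Figure D1:**
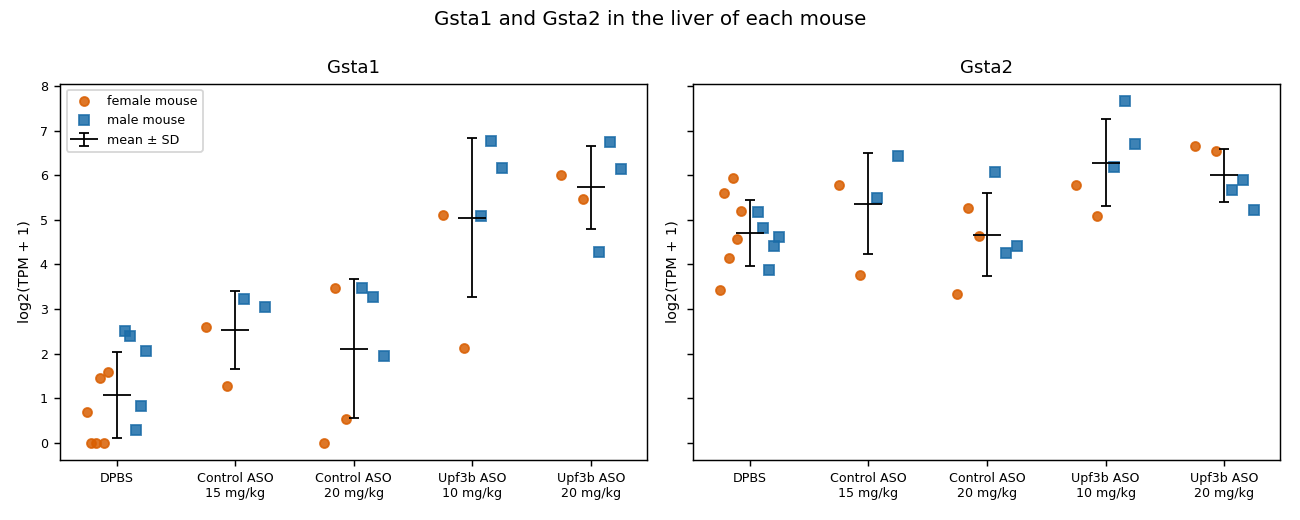
Levels of Gsta1 (left) and Gsta2 (right) as log2(TPM + 1) in each of the 31 mice by group, with circles for females, squares for males, and bars for the group mean ± SD. The 5 mice given Upf3b-GalNAc-ASO 20 mg/kg lie above every DPBS and control ASO mouse for Gsta1, whereas Gsta2 overlaps between all groups.

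At 20 mg/kg, 1 of the 9 members tested passed an adjusted p of 0.05, where 2.52% of the 9376 genes tested did (236 genes). That member was Gsta1, 3.53 higher on the log2(TPM + 1) scale than in Control-GalNAc-ASO 20 mg/kg (SE 0.63, limma with sex as covariate, Benjamini-Hochberg adjusted p = 0.00515). Gsta2 was 1.35 higher (SE 0.43, adjusted p = 0.0903). Gsta1 and Gsta2 both met the looser criteria of the study (2-fold or more, with p before adjustment no higher than 0.01), where 6.23% of genes did. The pair summed ranged from 68.0 to 165 TPM against 9.09 to 76.7 in the control ASO mice, and was 2.04 higher on the log2 scale (SE 0.42, limma, adjusted p = 0.0145). Gsta1 alone stayed past the adjusted threshold in all 22 alternative settings and left-out mice (highest adjusted p 0.0469). Beside this, the 8 endothelial markers summed to 1572 to 2244 TPM in the Upf3b-GalNAc-ASO 20 mg/kg mice and to 630 to 1666 in their controls. Most of that sum was Pecam1 (means 1745 and 810 TPM), the only 1 of 7 tested past the adjusted threshold, and the median change of the 7 was -0.08 with 2 positive estimates. Their part in the result was not tested.

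At 10 mg/kg against Control-GalNAc-ASO 15 mg/kg, where the 2 doses differ, no member passed the adjusted threshold, as 0.295% of 9166 genes did (27 genes, with 1446 at an unadjusted p under 0.05). Gsta1 was 2.33 higher (SE 0.63, limma, unadjusted p = 0.00214, adjusted p = 0.114) and passed the study's thresholds alone among the members, as 4.81% of genes did. Without the library that stood apart, the change was 2.98 (limma, adjusted p = 0.00635), and without Control-GalNAc-ASO 15 mg/kg replicate 2 it was 1.92 (adjusted p = 0.345). Summed, Gsta1 and Gsta2 were 1.16 higher (SE 0.47, limma, adjusted p = 0.255). Gsta2 alone differed by 0.79 (SE 0.46, adjusted p = 0.405). The target Upf3b differed by -1.73 in this comparison on the log2 scale (limma, adjusted p = 0.211), or by -2.22 without that library (adjusted p = 0.0597), and by -3.87 at 20 mg/kg (adjusted p = 1.59e-05).

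Against the DPBS mice, which all 4 ASO groups share as controls, Gsta1 was 3.77 higher with Upf3b-GalNAc-ASO 10 mg/kg (SE 0.59, limma, adjusted p = 0.0014) and 4.56 higher with 20 mg/kg (SE 0.55, limma, adjusted p = 2.01e-05). Without the library that stood apart, the change at 10 mg/kg was 4.42 (limma, adjusted p = 0.000168). Gsta1 was the only member past the adjusted threshold in either comparison, where 0.376% and 1.13% of genes passed. The sum of Gsta1 and Gsta2 was 1.98 higher (adjusted p = 0.0377) and 2.19 higher (adjusted p = 0.00115). Gsta2 passed the study's thresholds in both (1.53, SE 0.42, and 1.36, SE 0.36), which 1.88% and 3.35% of genes did, with adjusted p of 0.158 and 0.0714. The control ASO groups differed from DPBS in no gene at the adjusted threshold (0% of 8971 and 9140 genes, with 644 and 905 genes at an unadjusted p under 0.05). There Gsta1 was 1.41 higher at 15 mg/kg (SE 0.59, 95% interval 0.19 to 2.63, adjusted p = 0.691) and 0.99 higher at 20 mg/kg (SE 0.58, interval -0.21 to 2.18, adjusted p = 0.582), and 3 mice of each group lay above the highest DPBS mouse. No member passed the study's thresholds in these comparisons, as 0.914% and 1.26% of genes did. DPBS levels of Gsta1 were near the floor, so the fold changes are understated by the pseudocount. In DPBS its median was below the 5 TPM minimum, so Gsta1 entered all 4 comparisons with DPBS only through the ASO group, where it was higher. Its p-values and intervals there only describe that difference.

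Whether the response grew with dose was tested as the difference between both Upf3b-GalNAc-ASO effects, each against its own control ASO group. No member passed (0% of 9797 genes did, with 799 at an unadjusted p under 0.05), and none met the study's thresholds, which 2.04% did. The effect on Gsta1 was 1.10 larger at 20 mg/kg with a 95% interval from -0.85 to 3.04 (limma, adjusted p = 0.762), and that on Gsta2 0.41 larger (-1.03 to 1.85). Without the library that stood apart, these differences were 0.51 (SE 0.86, limma, adjusted p = 0.947) and 0.16 (SE 0.70).

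**Figure D2:**
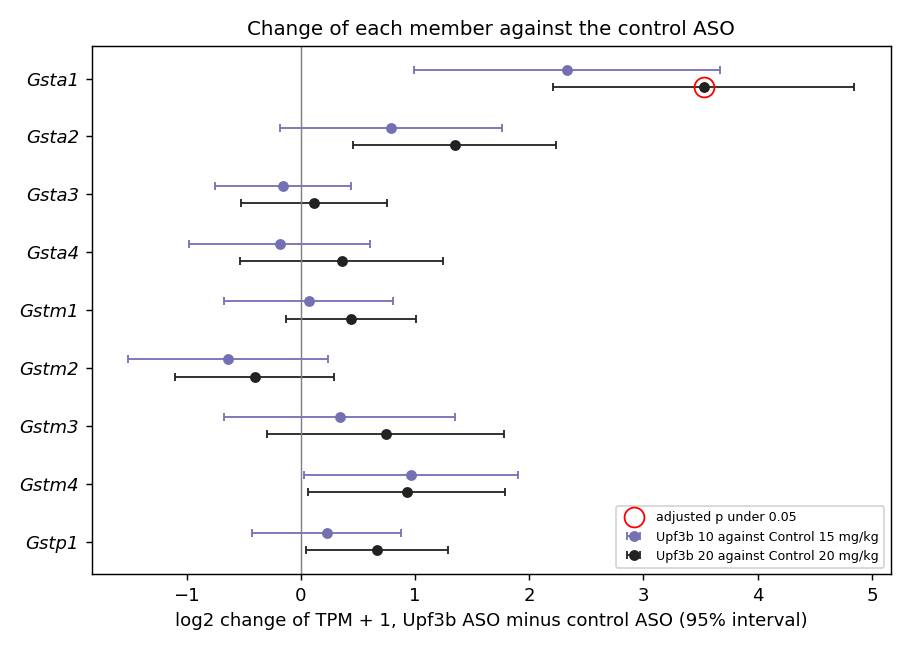
Change of the 9 tested members on the log2(TPM + 1) scale with 95% intervals, Upf3b-GalNAc-ASO minus control ASO, at 10 against 15 mg/kg (purple) and at 20 mg/kg (black), with a red ring at an adjusted p under 0.05. Gsta1 at 20 mg/kg (3.53) is the only ringed point, and the intervals of Gsta3, Gsta4, Gstm1, Gstm2 and Gstm3 include 0 in both comparisons.

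Gsta3, the most abundant alpha gene, passed neither threshold in any comparison. It was at 351 to 715 TPM in DPBS, 490 to 776 and 297 to 474 with the control ASO at 15 and 20 mg/kg, and 351 to 711 with Upf3b-GalNAc-ASO 10 mg/kg. At 20 mg/kg of Upf3b-GalNAc-ASO it was 750, 175, 544, 538 and 490 TPM, the mouse at 175 being replicate 2. Its difference from the control ASO was -0.15 (95% interval -0.75 to 0.44) at 10 against 15 mg/kg and 0.12 (-0.53 to 0.76) at 20 mg/kg, so that changes above about 2-fold lay outside both intervals. Gsta4, the alpha subunit known for conjugating the lipid peroxidation product 4-hydroxynonenal, had group means of 17.9 to 33.5 TPM. It differed by -0.18 (-0.97 to 0.61) and 0.36 (-0.53 to 1.25).

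Among the mu genes none passed the adjusted threshold in any comparison. Gstm1 was 880, 753, 286, 738 and 738 TPM with Upf3b-GalNAc-ASO 10 mg/kg, the lowest value being that of the library that stood apart, and 747, 346, 893, 648 and 864 with 20 mg/kg, against 376 to 806 over both control ASO groups. The differences were 0.07 (SE 0.35), or 0.44 (SE 0.22) without that library, and 0.44 (SE 0.27) at 20 mg/kg. Gstm2 was 0.64 lower (SE 0.41) and 0.40 lower (SE 0.33), and the only member with a negative estimate at both doses. Gstm4 was 0.96 higher (SE 0.44, limma, unadjusted p = 0.0448, adjusted p = 0.304) and 0.93 higher (SE 0.41, unadjusted p = 0.0361, adjusted p = 0.236). In 4 of 5 mice at 20 mg/kg it was 28.5 to 55.7 TPM, above the 12.8 to 26.4 of the control ASO mice, while replicate 2 was at 11.7.

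Gstm3 was 4.33 to 20.6 TPM in DPBS mice and 56.0, 4.42, 47.4, 23.4 and 60.6 with Upf3b-GalNAc-ASO 20 mg/kg. Here again replicate 2 was the low mouse and the other 4 lay above all DPBS mice. Against DPBS, Gstm3 was 1.35 higher (SE 0.42, limma, unadjusted p = 0.00363, adjusted p = 0.138), which passed the study's thresholds. Without replicate 2 the change was 1.84 (limma, adjusted p = 0.00562), but this was the only 1 of 16 fits with a mouse left out that passed. Without replicate 6 the adjusted p was 0.363. Of 12 other settings 1 passed (limma, adjusted p 0.0131). The highest adjusted p, 0.431, came with a replicate block, which keeps only mice whose number occurs in both groups. Against Control-GalNAc-ASO 20 mg/kg (10.6 to 36.4 TPM) it was 0.74 higher (SE 0.50, adjusted p = 0.441), and at 10 against 15 mg/kg 0.34 higher (SE 0.47, adjusted p = 0.751).

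**Figure D3:**
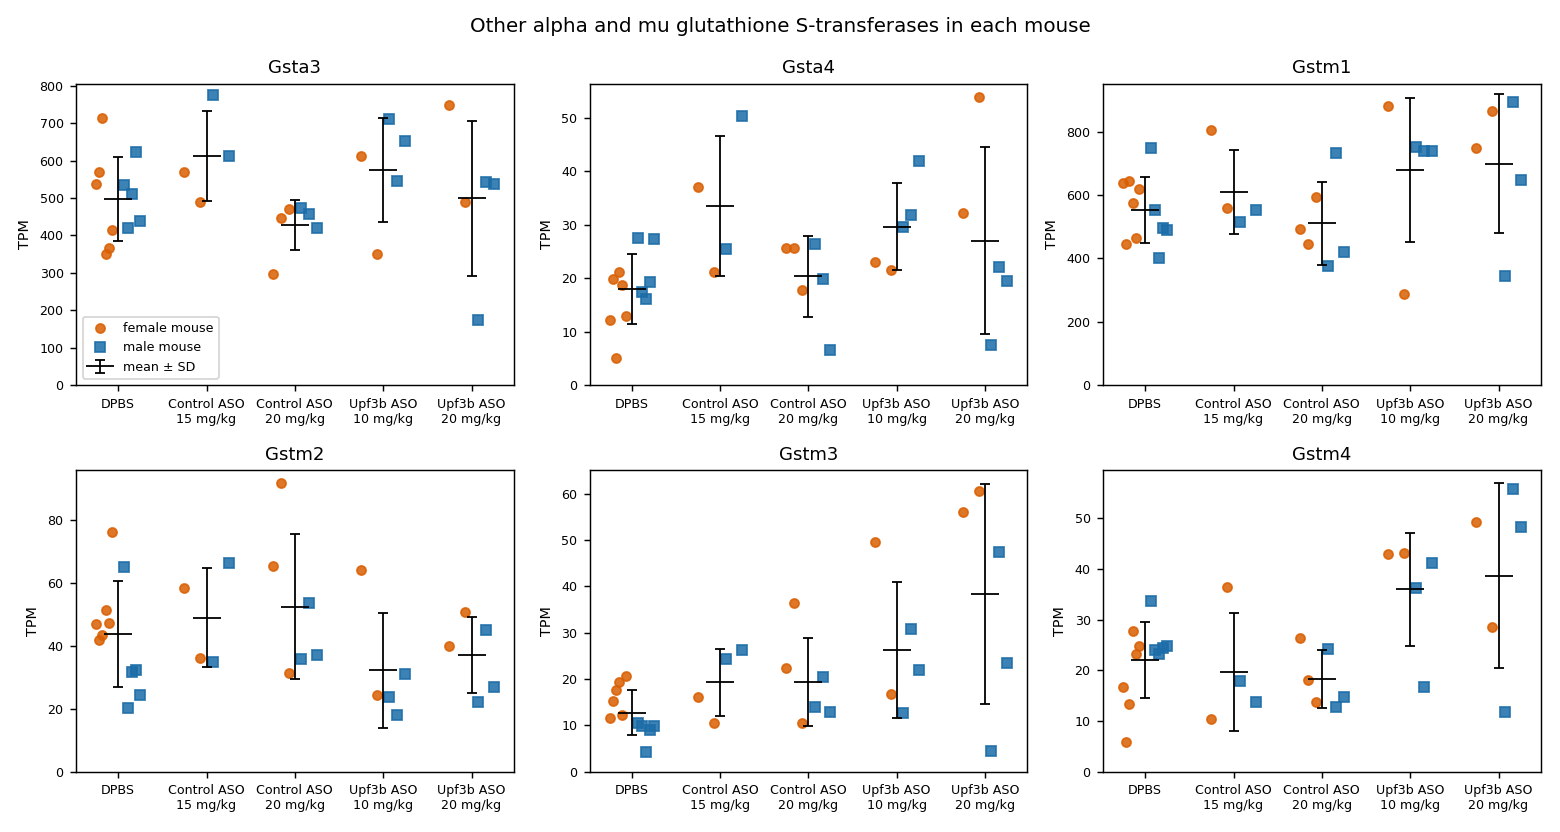
TPM of Gsta3, Gsta4, Gstm1, Gstm2, Gstm3 and Gstm4 in each of the 31 mice by group, with circles for females, squares for males, and bars for the group mean ± SD on axes from 0. All 6 genes overlap between each Upf3b-GalNAc-ASO group and its control ASO group, and the male at 175 TPM of Gsta3 with Upf3b-GalNAc-ASO 20 mg/kg is also the lowest of its group for Gsta4, Gstm1, Gstm2, Gstm3 and Gstm4.

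Gstp1 separated the sexes in every group. In DPBS the 5 males were at 961 to 1544 TPM and the 6 females at 133 to 164. Males were 2.91 higher on the log2 scale (SE 0.20, limma, adjusted p = 5.55e-08), a 7.52-fold difference. It was the only one of 8 members tested that passed, where 1.25% of 8405 genes did, and the only one past the study's thresholds, which 2.67% did. Over all 31 mice the 16 males (764 to 2614 TPM) and the 15 females (120 to 396) did not overlap. The ratio of male to female means was 7.65 in DPBS, 6.17 and 6.97 with the control ASO at 15 and 20 mg/kg, and 7.15 and 5.26 with Upf3b-GalNAc-ASO at 10 and 20 mg/kg. Of the summed TPM of the 10 genes, Gstp1 made up 50.1% ± 1.01 (SD, n = 5) in DPBS males and 11.6% ± 1.98 (n = 6) in females. Gstm3 was lower in males (4.33 to 10.6 TPM) than in females (11.6 to 20.6) without overlap, but the difference of -0.83 (SE 0.40) had an adjusted p of 0.533 by limma. How many of all genes separated the sexes without overlap was not counted. The remaining members tested differed between the sexes by -0.64 (Gstm2) to 0.59 (Gstm4), and Gsta1 was below the TPM minimum there.

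With treatment, Gstp1 differed from Control-GalNAc-ASO by 0.23 (SE 0.31, limma, adjusted p = 0.739) at 10 against 15 mg/kg, or by 0.48 (SE 0.22, adjusted p = 0.312) without the library that stood apart, and by 0.67 (SE 0.30, unadjusted p = 0.0362, adjusted p = 0.236) at 20 mg/kg. Males given Upf3b-GalNAc-ASO 20 mg/kg were at 764, 2614 and 1332 TPM and females at 202 and 396, against 850 to 1156 and 120 to 178 in the control ASO mice. The treatment by sex interaction passed for no member at either dose (0% of 9166 and 0.0107% of 9376 genes passed, with 305 and 284 at an unadjusted p under 0.05), nor did any pass the study's thresholds, which 0.491% and 0.405% did. For Gstp1 the interactions were 0.33 (95% interval -1.04 to 1.70) and -0.51 (-1.80 to 0.78), and for Gsta1 1.19 (-1.60 to 3.97) and -1.57 (-4.19 to 1.06). Without the library that stood apart, those at 10 against 15 mg/kg were -0.28 for Gstp1 and -0.30 for Gsta1. Gstp2, the second pi gene, was listed at 0, or within 1e-06 of it, in 28 mice. It stood at 8.38 and 9.28 TPM in Upf3b-GalNAc-ASO 10 mg/kg replicates 2 and 5 and at 8.80 in Upf3b-GalNAc-ASO 20 mg/kg replicate 6, and it never reached the TPM minimum for testing. Summed with Gstp2, Gstp1 differed between the sexes in DPBS by 2.91 (limma, adjusted p = 5.55e-08) and from the control ASO by 0.23 and 0.68 (adjusted p = 0.734 and 0.234).

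**Figure D4:**
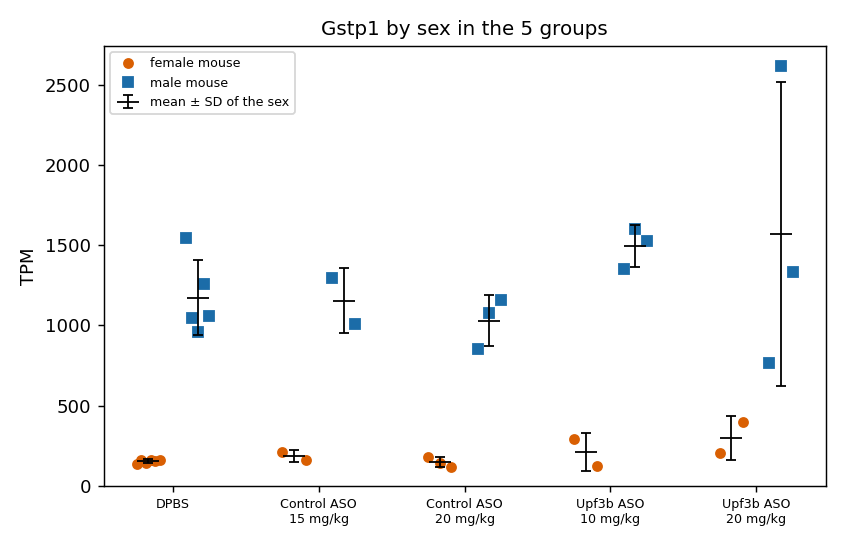
TPM of Gstp1 in each mouse by group and sex on an axis from 0, with circles for females, squares for males and bars for the mean ± SD of each sex. The males (764 to 2614 TPM) lie above the females (120 to 396 TPM) in all 5 groups.

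Other enzymes of the same reactions were counted from lists. Among 16 further transferases (mu 5 to 7, theta, kappa, omega, zeta and microsomal genes, Gstp3 and Hpgds), 11 were tested against the control ASO, and 1 passed the adjusted threshold at each dose, the theta gene Gstt3. It fell by 1.96 on the log2 scale at 10 against 15 mg/kg (SE 0.35, limma, adjusted p = 0.0295), from 166 ± 104 (SD, n = 4) to 34.1 ± 13.6 TPM (n = 5), and at 20 mg/kg by 2.38 (SE 0.41, adjusted p = 0.00391). These means pool the sexes, and in DPBS mice Gstt3 was 69.5 TPM in males and 251 in females (limma, adjusted p = 0.000646). The median change of the 11 was -0.56 and -0.42, beside -0.03 and -0.12 over all genes tested, with 1 positive estimate at each dose. The 9 members had medians of 0.23 and 0.67 with 6 and 8 positive estimates. Of all genes tested 48.4% and 43.2% had positive estimates. Gsta1 and Gsta2 can share reads, so their estimates are not separate. Gstm6 (1.32 lower, limma, unadjusted p = 0.00836) passed only the study's thresholds, at 20 mg/kg. Of 14 genes of glutathione synthesis and recycling, 13 were tested and none passed the adjusted threshold. At the study's thresholds 1 was raised at each dose, Slc7a11, the cystine transporter (1.06 higher), at 10 mg/kg and Gpx4, a lipid peroxide reductase (113 against 54.5 TPM), at 20 mg/kg.

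Of 11 genes of conjugate export and mercapturate formation, 6 were tested at 10 against 15 mg/kg with none past the adjusted threshold, and 5 at 20 mg/kg, where Abcc2, a canalicular exporter of conjugates, fell by 1.64 (SE 0.42, limma, adjusted p = 0.0477). In the NRF2 list 15 of 18 genes were tested. None passed at 10 against 15 mg/kg, and Osgin1, an oxidative-stress-induced growth inhibitor, rose at 20 mg/kg by 2.68 (SE 0.36, limma, adjusted p = 0.000314), from 67.9 ± 45.8 (n = 6) to 394 ± 96.0 TPM (n = 5). Me1, malic enzyme, was 1.03 lower there (SE 0.32, limma, adjusted p = 0.084), past the study's thresholds, and against DPBS it fell by 1.08 (adjusted p = 0.0377). The list's median change was 0.02 and 0.39. Among the 18 genes of the CAR and PXR list, 12 were tested and none passed the adjusted threshold against the control ASO. At the study's thresholds 2 and 1 were lowered, with list medians of -0.39 and -0.19. The 2 included Nr1i3, the gene of CAR (1.31 lower, limma, unadjusted p = 0.00398, adjusted p = 0.146). Against DPBS at 20 mg/kg, Cyp2c29 of this list was 1.27 lower (limma, adjusted p = 0.00343). Of the 7 genes of the aryl hydrocarbon receptor list, 4 were tested, none passed either threshold, and the medians were -0.60 and -0.49. Gstt3 at 20 mg/kg and between the sexes, Slc7a11, Gpx4, Gstm6, Pecam1, Abcc2, Me1 and Nr1i3 were named after their values were seen.

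The genes whose log2(TPM + 1) was most like each class were sought among 9831 genes over the 31 mice, which share groups and sex. For the alpha mean these were Adck5, Tstd1, Adcy6, Etnppl and Cnot11 (Pearson r = 0.782 to 0.750). For the mu mean they included Cutal, Acsl5, Spp2 and Prss23 (r = 0.746 to 0.660). The pi mean was most like Mup21, Cyp2d9, Skint8, Cyp4a12a and Mup20 (r = 0.837 to 0.783), and within each sex these 5 had r of 0.307 to 0.655 in the 15 females and 0.00211 to 0.641 in the 16 males. Between Gsta1 and Gsta2 r was 0.758, and 0.577 after group and sex means were taken out.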

How the data were processed

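Liver RNA of 31 mice was analysed, each a separate animal, grouped by the labels. Per the labels the authors made 3′ libraries (QuantSeq), whereas the study's methods name another kit, and the deposited values are TPM that the authors obtained with Salmon 0.7.2 on GRCm38.p4 (reads converted with bcl2fastq 2.17.1.14). Of the values above 0 in each library, 70.2% to 81.6% were whole multiples (within 0.02) of the commonest value, which was taken as 1 read. This gave the read total and implies that TPM was not divided by transcript length. Of 31198 rows, 26 with symbols turned into dates were left out.

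For each comparison log2(TPM + 1) was fitted in limma 3.58.1 (R 4.3.3) with sex as a covariate and eBayes with trend and robust, over the genes whose median reached 5 TPM in 1 or more of the groups compared. P-values were adjusted by Benjamini-Hochberg over all genes tested, at a threshold of 0.05, and the study's thresholds (2-fold, unadjusted p at most 0.01) were applied beside it. The fits were tested on simulated data. The members and gene lists were chosen with earlier results of these data known. By name the text gives all members, Upf3b, at most 4 list genes a comparison with the smallest p among those past either threshold, and the 5 genes most like each class, of which 1 is not reported here. A few further list genes were named after their values were seen. Alternatives were other pseudocounts, minimums and scalings, no sex term, plain eBayes, arrayWeights, all mice in one fit, summed paralogs, a replicate block and each mouse left out. Same-numbered mice of different groups did not deviate together (mean r from -0.11 to 0.03), so the numbers were not taken as pairs. Mice given Upf1-GalNAc-ASO were not analysed here. Sequence work used Python 3.11.15.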

Additional observations from a re-analysis of the deposited data

Results flagged for a closer look

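In 6 of 42 groups of 4 to 6 mice tested, the highest or lowest mouse stood apart from the rest by more than Dixon's 95% limit, where chance gives about 1 in 20. The 11 DPBS mice were not tested in this way. Gsta3 was 297 TPM in Control-GalNAc-ASO 20 mg/kg replicate 1, below the next mouse at 421. Gstm1 was 806 TPM in Control-GalNAc-ASO 15 mg/kg replicate 1, above the next at 560. With Upf3b-GalNAc-ASO 10 mg/kg, Gstm1 was 286 TPM in replicate 3, the library with the fewest reads, below the next at 738. In the same group Gstm2 was 64.0 TPM in replicate 1 (next 31.2) and Gstm4 16.7 TPM in replicate 4 (next 36.3). Gstp2 was 8.80 TPM in Upf3b-GalNAc-ASO 20 mg/kg replicate 6 and at or within 1e-06 of 0 in the other mice of that group, and all 31-base words at its 3′ end are shared with Gstp1. With only 1 mouse clearly above 0 this flag was fixed in advance, so the rate by chance does not apply to it.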

How the results depend on the processing

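Gsta1 kept its direction and its adjusted call at 20 mg/kg and against DPBS under every alternative run, the sum with Gsta2 included. At 10 against 15 mg/kg it passed the adjusted threshold in 2 of 20 alternatives that test it alone (adjusted p from 0.004 to 0.345 by limma). The low depth of some libraries limits Gsta1 in control mice and Gstp2. Counts of genes at an adjusted p under 0.05 moved as follows, and the cause was not tested. At 10 against 15 mg/kg the 27 genes became 15 with a pseudocount of 0.1, 56 with 5, 10 without the sex term, 16 with plain eBayes and 388 with arrayWeights, and 2 to 431 with 1 mouse left out (431 without Upf3b-GalNAc-ASO 10 mg/kg replicate 1, 91 without replicate 3, and 2 without Control-GalNAc-ASO 15 mg/kg replicate 3). At 20 mg/kg the 236 became 154 with a pseudocount of 0.1 and 60 with plain eBayes, and 70 to 270 with 1 mouse left out. Control-GalNAc-ASO against DPBS had 0 genes, or 261 (15 mg/kg) and 9 (20 mg/kg) with arrayWeights, 1 at 20 mg/kg with a pseudocount of 5, and 0 to 1 and 0 to 7 with 1 mouse left out. Upf3b-GalNAc-ASO against DPBS had 34 at 10 mg/kg, or 62 with arrayWeights and also with all 31 mice in one fit, and 103 at 20 mg/kg, or 159 and 163, and 56 to 119 with 1 mouse left out. Between the sexes 105 became 184 with arrayWeights. The dose difference had 0, or 2 with plain eBayes and with arrayWeights, and 0 to 13 with 1 mouse left out. The sex interaction at 20 mg/kg had 1, or 0 with a pseudocount of 0.1, a minimum of 20 TPM or plain eBayes and 3 with a pseudocount of 5, and 0 to 1 with 1 mouse left out. That at 10 against 15 mg/kg had 0 to 378.

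With a replicate block the counts were 95 at 10 against 15 mg/kg, 45 at 20 mg/kg, 2 for Control-GalNAc-ASO 15 mg/kg and 9 and 42 for Upf3b-GalNAc-ASO 10 and 20 mg/kg against DPBS. Over the same mice without the block, an alternative added after the data were seen, the first 2 were 13 and 70, and that for 10 mg/kg against DPBS was 14.

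Some estimates turned sign, none of them past the threshold. Against DPBS, Control-GalNAc-ASO 20 mg/kg gave Gsta2 0.20 with arrayWeights and 0.16 over the paired mice with or without the block, Gstm4 0.0363 over those mice, and Gstp1 0.00548 without the sex term. Control-GalNAc-ASO 15 mg/kg gave Gstm1 -0.00133 over the paired mice without the block. With arrayWeights Gsta3 was 0.0909 with Upf3b-GalNAc-ASO 20 mg/kg and Gsta2 0.00642 between the sexes. With 1 mouse left out, estimates spanned 0 at 10 against 15 mg/kg for Gstm1 (-0.13 to 0.44) and Gstm3 (-0.0644 to 0.57), at 20 mg/kg for Gsta3 (-0.0848 to 0.44), and against DPBS for Gstm2 with Control-GalNAc-ASO 15 mg/kg (-0.0327 to 0.44), Gsta2 with Control-GalNAc-ASO 20 mg/kg (-0.34 to 0.25), and Gsta3 (-0.28 to 0.23) and Gstm2 (-0.26 to 0.0175) with Upf3b-GalNAc-ASO 20 mg/kg. The same held between the sexes for Gsta3 (-0.0138 to 0.19) and Gstm1 (-0.21 to 0.0120), and in the sex interaction at 10 against 15 mg/kg for Gsta1 (-0.30 to 2.68), Gsta2 (-0.77 to 1.23) and Gstp1 (-0.28 to 0.95).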

Other observations

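Among genes of the liver zones, the 10 pericentral genes included Oat, an enzyme of ornithine breakdown, which fell by 2.53 on the log2 scale at 10 against 15 mg/kg (limma, adjusted p = 0.00473) and by 2.37 at 20 mg/kg (adjusted p = 0.00031). At 20 mg/kg the glutamate transporter Slc1a2 fell by 2.37 (limma, adjusted p = 8.54e-05) and glutamine synthetase, Glul, by 1.41 (adjusted p = 0.00241). With Oat, 3 of 8 pericentral genes tested fell past the adjusted threshold, as 149 of all 9376 genes tested did. The lists were chosen with earlier results of these data known, so these counts only describe. Against the control ASO none of 10 periportal genes tested passed the adjusted threshold at either dose. Against DPBS 2 rose at 20 mg/kg, where 27 of all 9078 genes tested rose. They were Aldh1b1 (1.20 higher, limma, adjusted p = 0.0123) and Cdh1 (1.11 higher, adjusted p = 0.0134), both named after their values were seen. Pck1, of gluconeogenesis, was 1.12 lower than in the control ASO mice at 10 against 15 mg/kg (adjusted p = 0.0654).

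Of the female-biased liver genes, 1 of 8 tested at 10 against 15 mg/kg passed the adjusted threshold, as 0.295% of all 9166 genes did. It was Acot3, a peroxisomal thioesterase, which fell by 2.64 (limma, adjusted p = 0.0491). Of the male-biased genes none of 9 passed there and 1 of 9 fell at 20 mg/kg, where 149 of all 9376 genes fell. In DPBS mice all 8 male-biased genes tested were higher in males at the adjusted threshold, as Gstp1 was, and 7 of 8 female-biased genes were lower. Over all 8405 genes tested 1.25% passed there.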
